A study of Homo sapiens with 12 samples.

Results

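The genes described are ACO1, IREB2, FBXL5, PCBP1, PCBP2 and CDC42BPA, which encode iron regulatory proteins 1 and 2 (IRP1 and IRP2), the iron-sensing ubiquitin ligase adaptor that removes IRP2, a pair of cytosolic iron chaperones, and a kinase whose transcript carries an iron-responsive element (IRE). They were chosen by name, as the entries of the deposited table with these symbols, and are 6 of 56337 distinct gene IDs. All 6 passed the expression minimum of 1 FPKM, averaged across the 12 libraries (FPKM, fragments per kilobase of transcript, scaled to the depth of the library). The cells were HEK293T, which derive from human embryonic kidney and carry the SV40 large T antigen, labelled wild type and grown in RPMI medium with serum. The 4 groups of 3 libraries were FAC+BafA1, FAC, BafA1 and control. FAC is ferric ammonium citrate, an iron salt, given at 0.1 mg/ml as a pre-incubation of 24 h; BafA1 is bafilomycin A1, which blocks the V-ATPase, the proton pump of lysosomes, given at 10 nM for the 24 h that followed. FAC+BafA1 cells had both, control cells had neither, and the labels do not say whether FAC was present during the BafA1 period.

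IRP1 and IRP2 bind IREs, short hairpins in the untranslated regions (UTRs) of transcripts for iron uptake, storage and export. Binding in a 3′ UTR protects the transcript, as in the transferrin receptor TFRC, and binding in a 5′ UTR blocks translation, as in ferritin. When iron is plentiful IRP1 takes up an iron-sulfur cluster and becomes a cytosolic aconitase, while FBXL5 is stabilised by iron and marks IRP2 for the proteasome. PCBP1 and PCBP2 are RNA-binding proteins that also carry ferrous iron to ferritin and to iron enzymes. Much of this control acts on protein stability and translation, which transcript levels do not measure.

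The hairpin itself is shown first, since the regulators bind IREs and CDC42BPA was included as a gene whose transcript carries one. Whether the windows below are bound was not tested. Annotated coding transcripts (GENCODE release 44, GRCh38) were searched for a window of 27 bases with an unpaired C, 5 paired bases on each side of a loop of the form CAGTGN, and at least 3 of 5 pairs in the lower stem, G with T counted as a pair. A second loop form, CAGAGN, was added after the first found nothing in CDC42BPA. Each line below is in the sense of the transcript, 5′ to 3′, with the 6 loop bases in capitals.
CDC42BPA: gaaaacacttgCAGAGCcaggttttgc
TFRC, first site after the stop codon: tttatcagtgaCAGAGTtcactataaa
TFRC, the next site: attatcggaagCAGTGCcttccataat
CDC14A: atttacatgtaCAGTGTtacattatat
FTH1: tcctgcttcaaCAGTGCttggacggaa
FTL: tcttgcttcaaCAGTGTttggacggaa
The CDC42BPA window lies at chr1:226993455-226993481 on the minus strand, in the last exon, and has 4 of 5 lower pairs. It was the only window of either form in the 6 genes. It begins 787 bases after the stop codon in a 3′ UTR of 4403 bases, and 5 of 9 annotated coding transcripts of CDC42BPA carry it. At least 5 of the 13 CDC42BPA transcripts listed in the deposited table carry it. Listed transcripts that are not among the annotated coding ones were not searched. The deposited values are per gene, so transcripts with and without the hairpin cannot be told apart.

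**Figure D1:**
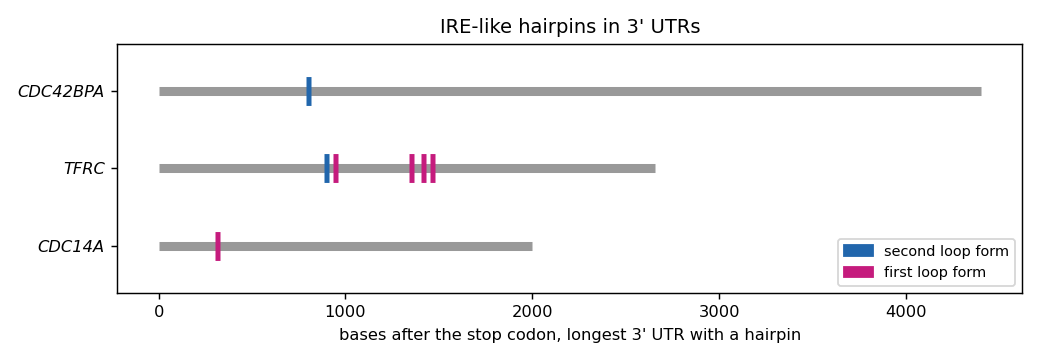
IRE-like hairpins in the longest 3′ UTR that holds them, drawn to scale in bases after the stop codon (x axis) for CDC42BPA, TFRC and CDC14A. Grey bars are the UTRs; blocks are the windows, coloured by loop form. CDC42BPA has 1 window at base 787 of 4403, TFRC has 5 between bases 886 and 1478, and CDC14A has 1 at base 304.

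The same search found 5 windows in the 3′ UTR of TFRC, 4 of the first loop form and 1 of the second, from chr3:196050464-196050490 to chr3:196051030-196051056 on the minus strand. It found 1 in the 3′ UTR of CDC14A (chr1:100518584-100518610, plus strand). The TFRC windows are in 10 of 11 annotated coding transcripts and the CDC14A window in 1 of 8. Of the transcripts listed in the deposited table, at least 3 of 15 for TFRC and 1 of 5 for CDC14A carry such windows. Here too, listed transcripts outside the annotated coding ones were not searched. The values of these genes are also per gene, so transcripts with and without the hairpin cannot be told apart. The search continued beyond 3′ UTRs. In 5′ UTRs it found 1 each in FTH1 (chr11:61967575-61967601, minus strand), FTL (chr19:48965336-48965362, plus strand), ALAS2 and SLC40A1. No window of either form was found in SLC11A2 or EPAS1, which are also known to bear an IRE. Among all annotated genes the first loop form was present in the 3′ UTR of 33 of 19156 genes (0.172%) and the second in 53 (0.277%). A match is a match of letters and does not show that the hairpin forms or is bound.

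The libraries held an estimated 35 to 39 M fragments each, read from the steps of low FPKM values, and 13244 to 13597 genes at 1 FPKM or more. The summed FPKM were lower in BafA1 (600261 to 604483) than in the other 9 libraries (634935 to 651311). Of 5 markers of the HEK293 line, NEFL, NEFM and INA were above 1 FPKM on average, and PAX2 and LHX1 were below it. The summed level of those 5 was 105 to 110 FPKM in FAC+BafA1, 94.7 to 97 in FAC, 138 to 154 in BafA1 and 89.7 to 93.5 in control. For 8 keratinocyte or HeLa markers the sum was 0.63 to 2.67 FPKM over all libraries, with none of the 8 at 1 FPKM on average and KRT6A at 0. The sum over 7 blood markers was 1.85 to 2.8 FPKM in FAC+BafA1, 2.67 to 3.32 in FAC, 1.17 to 1.35 in BafA1 and 2.17 to 2.4 in control, with HBA1 above 1 on average and HBB at 0. Over 8 fibroblast markers it was 7.94 to 11.2 in FAC+BafA1, 7.54 to 9.21 in FAC, 4.98 to 5.68 in BafA1 and 7.32 to 9.91 in control, with COL1A1 and FBN1 above 1 on average and COL1A2 at 0. The part of these marker levels in the results was not tested. Libraries with and without FAC filled some entries differently: 627 entries stood at 0 throughout one kind and reached 1 FPKM in every library of the other kind. None of the 6 genes was among them. The share of low values close to whole fragments also differed, at 71.4% to 75.5% with FAC and 55.2% to 58.9% without. In every comparison of libraries with FAC and libraries without it, and in differences between such responses, iron and a difference in how the values were made cannot be told apart. FPKM are shares of a library, so less of a transcript per cell, fewer cells that express it and more of all other RNA cannot be told apart.

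BafA1 without added iron, set against control, asked what blocking lysosomal acidification did to the regulators. CDC42BPA and PCBP2 rose, ACO1 and FBXL5 fell, and IREB2 and PCBP1 changed least, by 1.10-fold and to 0.930 times the control mean. All 6 genes were called at an adjusted p under 0.05 by limma on log2(FPKM + 1), 3 higher and 3 lower, but 67.1% of the 13682 genes tested were called in this comparison (29.5% higher, 37.6% lower). In each of the 6 genes the BafA1 and control libraries did not overlap, which held for 68.7% of all genes. Neither count therefore sets the 6 genes apart. The median log2 change of the 6 was 0.02, against -0.04 over all genes tested.

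FAC+BafA1 set against BafA1 compared BafA1-treated cells with and without iron, and the mean of each gene in FAC+BafA1 lay nearer to control than in BafA1, or on the other side of control. All 6 were called, 3 higher and 3 lower, each in the direction opposite to the BafA1 change as reported, where 67.9% of all genes tested were called (38.8% higher, 29.1% lower). For PCBP1 the opposite direction rested on the scaling. Under quantile normalization its log2 change was 0.0046 with BafA1 against control and 0.11 with FAC+BafA1 against BafA1. In all 6 the libraries of both groups did not overlap, as in 71.2% of all genes. The comparison uses the same BafA1 libraries as BafA1 against control, so the opposite directions are not separate evidence. FAC without BafA1, set against control, gave no call among the 6, with log2 changes of -0.06 to 0.06, and 9.56% of all genes were called. PCBP1 and PCBP2 lay above control in every FAC library and CDC42BPA below it, 3 genes without overlap against 20.3% of all genes. FAC+BafA1 set against FAC, which asked what BafA1 did in iron-loaded cells, also gave no call among the 6, with log2 changes of -0.16 to 0.09, where 19.3% of all genes were called. There 5 of the 6 had libraries that did not overlap, 3 above and 2 below, against 36.9% of all genes. Unadjusted p-values were under 0.05 for 0 of the 6 in FAC against control and for 3 of the 6 in FAC+BafA1 against FAC.

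**Figure D2:**
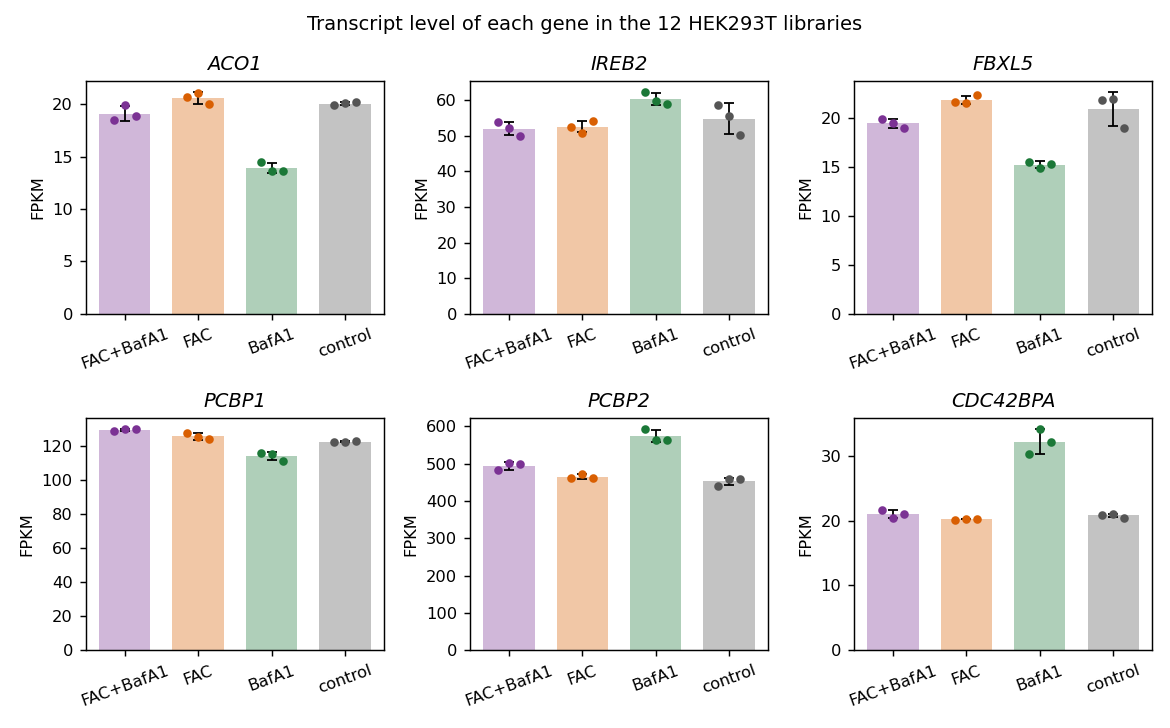
FPKM (y axis, from 0) of the 6 genes in the 4 groups. Points are libraries, bars are means and error bars are SDs (n = 3). BafA1 libraries do not overlap control in any panel, but for IREB2 the gap is very small, from 58.71 FPKM in control to 59.01 in BafA1. FAC+BafA1 libraries lie near control, with CDC42BPA at 20.45 to 21.67 FPKM in FAC+BafA1, 30.21 to 34.15 in BafA1 and 20.47 to 20.97 in control.

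ACO1, which encodes IRP1, the regulator that switches between RNA binding and aconitase activity, lies at chr9:32384603-32454769 on the plus strand. Its libraries had 18.52, 19.95 and 18.92 FPKM in FAC+BafA1, 20.71, 21.13 and 20.02 in FAC, 14.48, 13.68 and 13.64 in BafA1, and 19.92, 20.11 and 20.21 in control. The 3 BafA1 libraries were the lowest of the 12, and the other groups lay close together. ACO1 averaged 13.9 ± 0.474 FPKM in BafA1 and 20.1 ± 0.147 in control (SD, n = 3), a ratio of 0.694. The log2 change was -0.50 ± 0.04 (SE, limma adjusted p = 4.54e-07), and 28.3% of genes tested changed by more in size. With FAC+BafA1 against BafA1 it was 0.43 ± 0.04 (adjusted p = 1.54e-06). With FAC+BafA1 against FAC it was -0.10 (adjusted p = 0.103), although all 3 FAC+BafA1 libraries lay below all 3 FAC libraries. That change was called under quantile normalization (log2 -0.13, adjusted p = 0.044).

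IREB2, which encodes IRP2, the regulator controlled by degradation, lies at chr15:78437431-78501453 on the plus strand. It had 53.78, 52.14 and 50.02 FPKM in FAC+BafA1, 52.60, 50.90 and 54.02 in FAC, 62.27, 59.68 and 59.01 in BafA1, and 58.71, 55.68 and 50.14 in control. The BafA1 libraries were the highest, but the lowest of them was only just above the highest control library, and control had the widest spread. IREB2 averaged 60.3 ± 1.72 FPKM in BafA1 and 54.8 ± 4.35 in control (SD, n = 3), a ratio of 1.10. The log2 change of 0.14 ± 0.05 was called (SE, limma adjusted p = 0.0339). The call was lost without control replicate 3 (log2 0.08, adjusted p = 0.152), BafA1 replicate 1 (0.11) or BafA1 replicate 2 (0.0555), and also with the pair of groups fitted alone (0.101), no intensity trend (0.0532) or no filter (0.0834). FAC+BafA1 against BafA1 gave -0.21 ± 0.05 (adjusted p = 0.00325). FAC+BafA1 against FAC gave -0.01, with a 95% interval of -0.13 to 0.10.

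The ratio of IREB2 to ACO1 within a library is not changed when all values of that library are scaled by the same factor. Quantile normalization is not such a scaling and can change the ratio. FPKM are per length, so the ratio compares the levels of the transcripts of both regulators. It was 4.33 ± 0.0312 in BafA1 and 2.73 ± 0.235 in control (SD, n = 3), with all BafA1 libraries above all control libraries. It was 2.72 ± 0.16 in FAC+BafA1 and 2.55 ± 0.145 in FAC, and these groups overlapped. FAC+BafA1 lay below BafA1 in every library, a difference of -1.61 on average. The longest stretch identical between annotated transcripts of the pair is 40 bases. The two-sided exact permutation test gave p = 0.1 for BafA1 against control and for FAC+BafA1 against BafA1, the smallest that 3 against 3 allows (adjusted p = 0.2 over 10 such tests, n = 3). The same exact test gave p = 0.3 for FAC+BafA1 against FAC and for FAC against control.

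**Figure D3:**
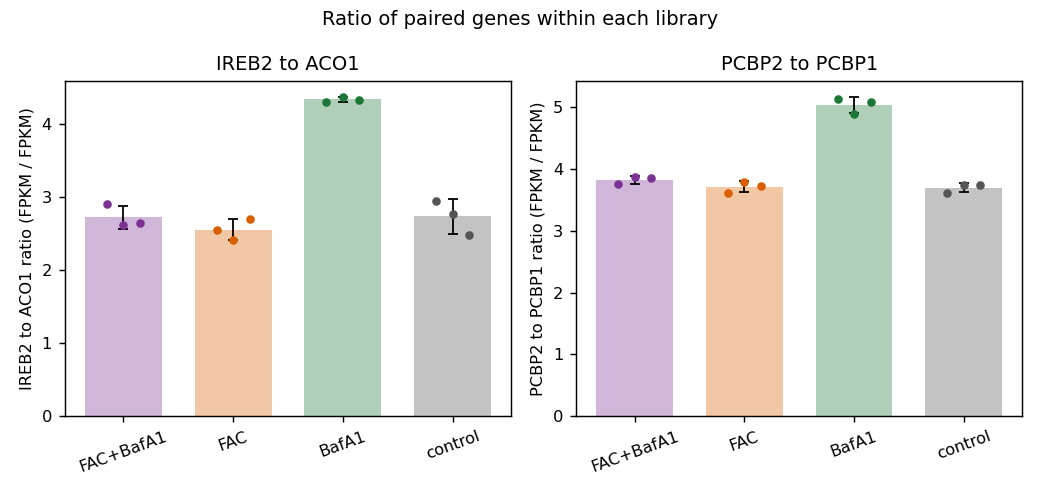
Ratio of IREB2 to ACO1 (left) and of PCBP2 to PCBP1 (right) in each library, FPKM over FPKM, axes from 0. Points are libraries, bars are means and error bars are SDs (n = 3). Both ratios are highest in BafA1, at 4.33 and 5.04 on average, against 2.73 and 3.69 in control.

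FBXL5, the iron-binding F-box protein that recruits IRP2 to its ubiquitin ligase, lies at chr4:15604381-15681679 on the minus strand. It had 19.96, 19.49 and 19.04 FPKM in FAC+BafA1, 21.71, 21.56 and 22.36 in FAC, 15.59, 14.88 and 15.34 in BafA1, and 21.93, 22.01 and 18.98 in control. The BafA1 libraries were the lowest of the 12, and 1 control library, replicate 3, sat below the other control libraries and below every FAC+BafA1 library. FBXL5 averaged 15.3 ± 0.36 FPKM in BafA1 and 21 ± 1.73 in control (SD, n = 3), a ratio of 0.728. The log2 change was -0.43 ± 0.05 (SE, limma adjusted p = 1.48e-05). FAC+BafA1 against BafA1 gave 0.33 ± 0.05 (adjusted p = 0.000126). FAC+BafA1 against FAC gave -0.16 ± 0.05 (adjusted p = 0.0562), with no overlap between the libraries. That change was called under quantile normalization (adjusted p = 0.0357), with the minimum at 5 FPKM (0.0479), with the pair of groups fitted alone (0.0285) and without control replicate 3 (0.0135). FAM200B overlaps the end of FBXL5 by 18 bases on the other strand and was at 15.02 to 22.25 FPKM over all libraries.

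FBXL5 works in a complex with the adaptor SKP1, the scaffold CUL1 and the RING protein RBX1, and HERC2 is a ligase that acts on FBXL5. Of these 4 genes, SKP1 and RBX1 fell with BafA1 and CUL1 and HERC2 were not called, 2 of 4 lower where 37.6% of all genes tested were. HERC2 was called lower as well under quantile normalization. RBX1 averaged 38 ± 1.27 FPKM in BafA1 and 58.4 ± 2.71 in control (log2 -0.61, limma adjusted p = 1.70e-07). SKP1 averaged 149 ± 9.08 FPKM in BafA1 and 205 ± 5.41 in control (log2 -0.45, adjusted p = 7.28e-07). CUL1 was at -0.06 (adjusted p = 0.114). The median log2 change of the 4 was -0.34, against -0.04 over all genes. In FAC+BafA1 against BafA1, which uses the same BafA1 libraries, 2 of the 4 were called higher, where 38.8% of all genes were. These were RBX1 and SKP1, at 0.57 and 0.38 log2 units (limma adjusted p = 2.74e-07 and 3.64e-06). Between FAC+BafA1 and FAC, SKP1 alone was called, lower (log2 -0.12, limma adjusted p = 0.0464), where 19.3% of all genes were called. That SKP1 call was lost under quantile normalization and with equal FPKM totals.

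The promoter of FBXL5 was the only window of the 6 genes to hold CACGTG, an E-box and the core of the site read by MITF and TFE family factors. The RefSeq start used here lies inside the GENCODE locus (GRCh38.p14), and the motif lies 120 to 115 bases before it. The stretch at chr4:15655460-15655489, minus strand, is shown with the motif in capitals.
FBXL5: cgcgcgcccggtCACGTGggccgcagggat
In the 250 bases before the start, CACGTG was present on either strand in 2228 of 35116 RefSeq windows (6.34%). ACGTG, the core of the hypoxia-inducible factor site, which every CACGTG contains on both strands, was in 18.5% of windows and, of the 6 genes, was found in FBXL5 alone. TGATGNAA, a core read by ATF4 with C/EBP factors, was in 3.14% of windows and in none of the 6 genes. IREB2 had 2 windows in the table and the other genes 1 each. No match says only that these letters are not in this window.

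PCBP1, the intronless member of the chaperone pair, lies at chr2:70087477-70089203 on the plus strand. It had 128.41, 129.52 and 129.67 FPKM in FAC+BafA1, 127.63, 124.92 and 123.72 in FAC, 115.43, 115.14 and 111.00 in BafA1, and 122.05, 122.35 and 122.74 in control. BafA1 was the lowest group and FAC+BafA1 the highest, over a range of 111 to 130 FPKM. PCBP1 averaged 114 ± 2.48 FPKM in BafA1 and 122 ± 0.346 in control (SD, n = 3), a ratio of 0.930. The log2 change was -0.10 ± 0.02 (SE, limma adjusted p = 0.00246), and its direction rested on the scaling. It was -0.04 with median-of-ratios scaling (adjusted p = 0.2), -0.01 with every library scaled to the same FPKM total (0.867) and 0.00 under quantile normalization (0.899). FAC+BafA1 against BafA1 gave 0.18 ± 0.02 (adjusted p = 3.17e-05).

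The antisense entry PCBP1-AS1 spans the whole of PCBP1 on the other strand, and whether counting used the strand is not given in the sources used here. PCBP1-AS1 averaged 8.82 ± 0.252 FPKM in FAC+BafA1, 8.05 ± 1.16 in FAC, 15.5 ± 1.67 in BafA1 and 8.24 ± 0.913 in control (SD, n = 3). It thus rose with BafA1 (log2 0.83 ± 0.10, limma adjusted p = 1.56e-05), where PCBP1 did not. Its part in the PCBP1 values was not tested.

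PCBP2, the other chaperone of the pair and the most abundant of the 6 transcripts, lies at chr12:53452102-53481162 on the plus strand. It had 481.81, 500.77 and 499.56 FPKM in FAC+BafA1, 460.97, 473.25 and 460.75 in FAC, 592.86, 563.69 and 563.74 in BafA1, and 440.77, 457.29 and 458.54 in control. BafA1 was the highest group and FAC+BafA1 the next, and neither overlapped any other group. PCBP2 averaged 573 ± 16.8 FPKM in BafA1 and 452 ± 9.92 in control (SD, n = 3), a ratio of 1.27. The log2 change was 0.34 ± 0.03 (SE, limma adjusted p = 4.38e-07). FAC+BafA1 against BafA1 gave -0.21 ± 0.03 (adjusted p = 2.59e-05), and FAC+BafA1 against control gave 0.13 ± 0.03 (adjusted p = 0.00417). FAC+BafA1 against FAC gave 0.09 ± 0.03, at the threshold itself (adjusted p = 0.05). That change was called with the minimum at 5 FPKM (0.0435), under quantile normalization (0.0174) with equal FPKM totals (0.0184), and without control replicate 1 (0.0461), BafA1 replicate 1 (0.0357) or FAC+BafA1 replicate 1 (0.0467). MAP3K12 overlaps the end of PCBP2 by 1494 bases on the other strand and was at 1.03 to 1.9 FPKM.

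FAC+BafA1 set against control asked what remained of both treatments, and PCBP1 and PCBP2 were the called genes among the 6, both higher and without overlap, where 32.9% of all genes tested were called (16.2% higher) and 46.1% did not overlap. PCBP1 was at 0.08 ± 0.02 log2 units (SE, limma adjusted p = 0.0288). That call was lost without any single control or FAC+BafA1 library (adjusted p = 0.0527 to 0.0777) and with no intensity trend (0.0886). Without control replicate 3, IREB2 (log2 -0.14, adjusted p = 0.0371) and FBXL5 (-0.16, 0.0115) were called lower. A short RNA entry inside PCBP2 (ENSG00000273658, 182 bases, same strand) was at 4.14 to 13.3 FPKM in the 6 libraries with FAC and 0.01 to 0.15 in the 6 without. Its part in the PCBP2 values was not tested.

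PCBP1 arose as a copy of a PCBP2 transcript. The longest stretch identical between the PCBP1 transcript and the longest annotated coding transcripts of PCBP2 is 33 bases, and shorter PCBP2 transcripts were not compared. Reads that fall in such stretches may be split between the entries, so their levels are uncertain to that extent. The ratio of PCBP2 to PCBP1 was 5.04 ± 0.126 in BafA1 and 3.69 ± 0.0724 in control, without overlap (SD, n = 3). It was 3.82 ± 0.0623 in FAC+BafA1 and 3.71 ± 0.0894 in FAC, with overlap. The two-sided exact permutation test gave p = 0.1 for BafA1 against control and for FAC+BafA1 against BafA1 (n = 3), the smallest it can give, and also for FAC+BafA1 against control, all 3 adjusted p = 0.2.

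Because the pair moved differently under BafA1, the bases just before their starts are shown side by side, with the longest shared run in capitals. The windows are chr2:70087421-70087476 and chr12:53452041-53452097, both on the plus strand, from RefSeq on GRCh38.p14.
PCBP1: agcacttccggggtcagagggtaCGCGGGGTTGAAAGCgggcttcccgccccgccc
PCBP2: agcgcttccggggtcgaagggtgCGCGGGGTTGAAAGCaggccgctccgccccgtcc
A local alignment of the 250 bases before each start placed these stretches together, with 48 of 57 columns identical (84.2%). The run of 15 bases was present in 4 of 35116 RefSeq windows (0.0114%), a count that includes the PCBP1 and PCBP2 windows from which the run was taken.

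Of 7 genes related to the chaperones, namely the family members PCBP3, PCBP4 and HNRNPK, the ferritin receptor NCOA4 and the enzymes EGLN1, DOHH and BLVRA, 4 were higher and 3 lower with BafA1, where 29.5% of all genes tested were higher and 37.6% lower. Under quantile normalization EGLN1 and HNRNPK lost their calls. PCBP4, the largest riser among them, averaged 7.82 ± 0.465 FPKM in BafA1 and 3.08 ± 0.108 in control (log2 1.11, limma adjusted p = 2.61e-08). NCOA4, which delivers ferritin for lysosomal breakdown, was at 0.54 (adjusted p = 4.39e-09), and BLVRA, a biliverdin reductase, at -0.95 log2 units (adjusted p = 8.88e-09). Between FAC+BafA1 and FAC, 2 were higher and 2 lower, where 19.3% of all genes were called. PCBP4 stayed higher there, at 5.84 ± 0.330 FPKM in FAC+BafA1 and 3.11 ± 0.219 in FAC (log2 0.74, adjusted p = 1.68e-05), and NCOA4 was at -0.20 (adjusted p = 0.000285).

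CDC42BPA, which encodes the kinase MRCK alpha, an effector of the small GTPase CDC42 that drives actomyosin contraction, lies at chr1:226989865-227318492 on the minus strand. It had 21.67, 20.45 and 21.03 FPKM in FAC+BafA1, 20.17, 20.22 and 20.25 in FAC, 30.21, 34.15 and 32.15 in BafA1, and 20.93, 20.97 and 20.47 in control. The 3 BafA1 libraries were far above the other 9, which all lay within 20.17 to 21.67 FPKM. CDC42BPA averaged 32.2 ± 1.97 FPKM in BafA1 and 20.8 ± 0.278 in control (SD, n = 3), a ratio of 1.55, the largest change among the 6. The log2 change was 0.60 ± 0.04 (SE, limma adjusted p = 1.38e-07), and 20.2% of genes tested changed by more in size. FAC+BafA1 against BafA1 gave -0.59 ± 0.04 (adjusted p = 1.47e-07). FAC against control gave -0.04 with a 95% interval of -0.13 to 0.06. FAC+BafA1 against FAC gave 0.06 with an interval of -0.04 to 0.15. A processed pseudogene entry within CDC42BPA on the other strand (ENSG00000228729) was at 1.53 to 4.67 FPKM in the 6 libraries without FAC and at 0 in the 6 with it, and its part in the comparisons across FAC was not tested.

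The other kinase of the family above the expression minimum, CDC42BPB, averaged 19.3 ± 1.53 FPKM in BafA1 and 20.7 ± 0.995 in control (log2 -0.10, limma adjusted p = 0.146). CDC42, the GTPase that both bind, fell to 155 ± 1.72 FPKM in BafA1, against 195 ± 1.95 in control (log2 -0.32, adjusted p = 3.39e-06). CDC42BPG was at 0.18 to 0.90 FPKM and was not tested.

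TFRC, the transferrin receptor with 5 of the hairpins shown above, followed another order of levels than CDC42BPA. TFRC averaged 122 ± 3.03 FPKM in FAC+BafA1, 10.2 ± 1.29 in FAC, 130.2 ± 3.05 in BafA1 and 58.3 ± 0.991 in control (SD, n = 3). Under FAC alone it was thus far below control (log2 -2.40 ± 0.06, SE, limma adjusted p = 6.71e-12), where CDC42BPA was at -0.04. With FAC+BafA1 against BafA1 TFRC was at -0.09 (adjusted p = 0.222), where CDC42BPA fell by 0.59 log2 units. TFRC was called lower there under quantile normalization and with equal FPKM totals. The difference between the genes was not tested.

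Of 8 further genes known to bear an IRE, 7 passed the expression minimum, and ALAS2, at 0 to 0.03 FPKM, did not. With BafA1 against control 4 were higher (TFRC, FTL, CDC14A and SLC11A2), 2 lower (SLC40A1 and FTH1) and 1 not called (EPAS1), with a median of 0.22 log2 units. Over all genes tested 67.1% were called in that comparison, with a median of -0.04. With FAC against control FTL was higher and TFRC and SLC11A2 lower, where 9.56% of all genes tested were called. CDC14A, a phosphatase gene with 1 hairpin in its 3′ UTR, averaged 3.94 ± 0.070 FPKM in BafA1 and 2.71 ± 0.251 in control (log2 0.41, limma adjusted p = 0.000631). It was at -0.23 with FAC+BafA1 against BafA1 (adjusted p = 0.0253). FTH1, the ferritin heavy chain with a hairpin in the 5′ UTR, was at -0.14 with BafA1 against control (adjusted p = 0.00508), a call lost under each of the 3 other scalings, and FTL, the light chain, at 0.25 (adjusted p = 0.000123). SLC40A1, the iron exporter, averaged 0.543 ± 0.121 FPKM in BafA1 and 1.29 ± 0.0924 in control (log2 -0.57, adjusted p = 0.000192). Its levels were near the expression minimum, at 0.43 to 1.75 FPKM over all libraries. The ratio of these means was 0.422, and adding 1 to FPKM shrinks log2 changes at such low levels. In FAC+BafA1 against FAC both FTH1 (0.25, adjusted p = 0.000795) and SLC40A1 (0.32, adjusted p = 0.0328) were higher instead, although the SLC40A1 call was lost under quantile normalization. There 6 of the 7 genes were called, all higher, where 19.3% of all genes were called and 50.7% of those calls were higher. The median of the 7 was 0.32 log2 units, against 6e-04 over all genes. Reads of FTH1 and FTL may be shared with their many retrocopies, which makes their levels uncertain.

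**Figure D4:**
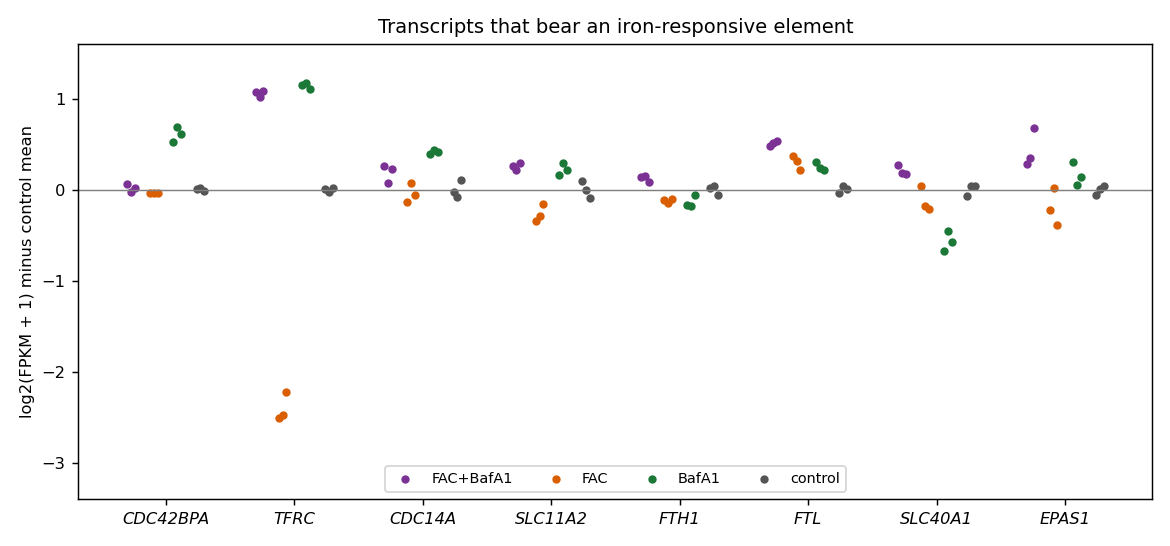
Level of each library relative to the control mean, in log2(FPKM + 1) units (y axis), for CDC42BPA and the 7 other expressed IRE-bearing transcripts. Points are libraries, coloured by group. CDC42BPA libraries are above 0 in BafA1 and near 0 in FAC+BafA1 and FAC, whereas TFRC is near 1 in FAC+BafA1 and BafA1 and below -2 in FAC.

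The interaction, which takes the response without FAC away from that with FAC, tested whether the response of each gene differed between cells with and without FAC. It was called for 5 of the 6 genes, 3 higher and 2 lower, where 50.1% of all genes tested were called (29.5% higher, 20.6% lower, a split that scaling moved). In each of those 5 the change with FAC was, as reported, closer to 0 or of the other sign. This did not hold for PCBP1 under quantile normalization, where its change was 0.08 with FAC and 0.0046 without. For CDC42BPA the change was 0.06 with FAC and 0.60 without, an interaction of -0.55 ± 0.06 (SE, limma adjusted p = 1.95e-05). For ACO1 it was -0.10 with FAC and -0.50 without, an interaction of 0.39 ± 0.06 (adjusted p = 0.000159). For PCBP2 the interaction was -0.25 ± 0.04 (adjusted p = 0.000244) and for FBXL5 0.27 ± 0.07 (adjusted p = 0.00962). For PCBP1 it was 0.15 ± 0.03 (adjusted p = 0.00401), a call not kept under median-of-ratios scaling (0.08, adjusted p = 0.102), quantile normalization (0.0881) and equal FPKM totals (0.109). For IREB2 it was -0.15 with a 95% interval of -0.31 to 0.01 (adjusted p = 0.106). It was called with median-of-ratios scaling (-0.22, adjusted p = 0.0285), with equal FPKM totals (0.0191) and without control replicate 1 (0.0296).

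**Figure D5:**
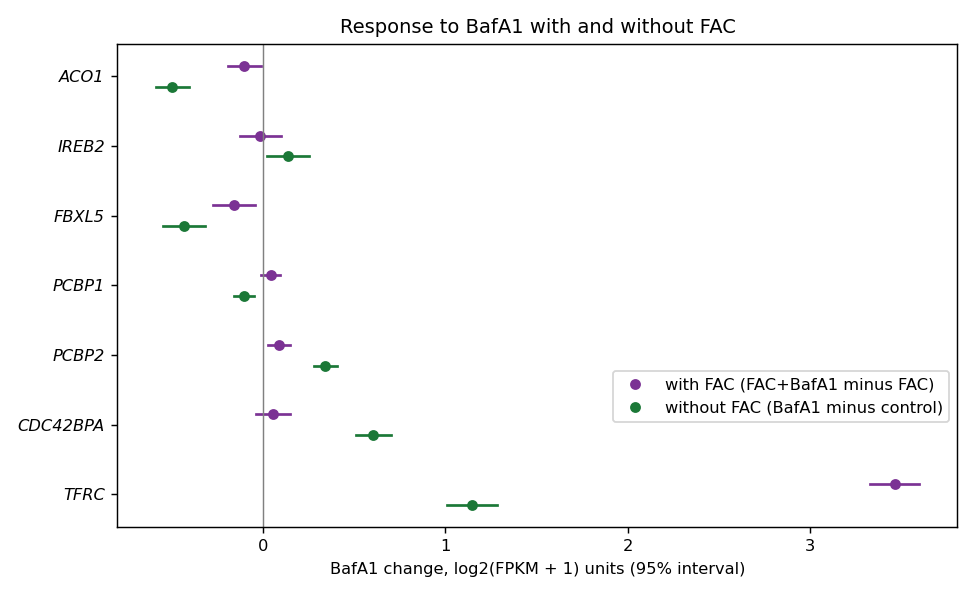
Change with BafA1 in log2(FPKM + 1) units (x axis) with FAC (upper point of each pair, FAC+BafA1 minus FAC) and without FAC (lower point, BafA1 minus control), with 95% intervals from limma. For ACO1 and CDC42BPA the points without FAC lie at -0.50 and 0.60 and those with FAC at -0.10 and 0.06. TFRC lies at 3.46 with FAC and 1.15 without.

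IRP1 and FBXL5 both hold iron-sulfur clusters, and of 11 genes of the cytosolic assembly of such clusters 10 were tested. With BafA1 against control 4 of the 10 were lower and 6 not called, with a median of -0.09 log2 units, where 37.6% of all genes were lower and the median was -0.04. That split rested on the scaling: 3 were higher and 3 lower with median-of-ratios scaling, 2 and 5 under quantile normalization, and 4 and 3 with equal FPKM totals. CIAO1, CIAPIN1 and CIAO2B were lower under all 3 alternatives, and MMS19 was higher under all 3. CIAPIN1, an electron carrier of that route, averaged 54.5 ± 3.01 FPKM in BafA1 and 89.3 ± 5.11 in control (log2 -0.70, limma adjusted p = 3.20e-07). CIAO1, of the targeting complex, was at -0.49 (adjusted p = 6.81e-08) and its partner CIAO2B at -0.32 (adjusted p = 8.91e-05). With FAC+BafA1 against BafA1 the same 4 genes of the 10, CIAO1, CIAPIN1, CIAO2B and NUBP2, were higher, where 38.8% of all genes were. Under each of the 3 alternatives these 4 were again higher and MMS19 lower. NUBP1 was also lower with median-of-ratios scaling and with equal FPKM totals. GLRX3 was also lower under quantile normalization and with equal FPKM totals, and CIAO3 was higher under quantile normalization. Set against FAC, FAC+BafA1 had CIAPIN1 (-0.25, adjusted p = 0.00956) and CIAO1 (-0.11, adjusted p = 0.036) lower, 2 of the 10, where 19.3% of all genes were called. The CIAO1 call was lost there under quantile normalization and with equal FPKM totals. BOLA2, which has a near-identical copy, was at 0 to 1.5 FPKM and was not tested.

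In order of mean FPKM in control the 6 genes ran PCBP2, PCBP1, IREB2, FBXL5, CDC42BPA and ACO1, and the range of FBXL5 spanned those of CDC42BPA and ACO1. In BafA1 CDC42BPA stood above FBXL5 and FBXL5 above ACO1, with no overlap between libraries. Over the 12 libraries, which fall into 4 groups and so are not independent points, Pearson's r of log2 values was -0.99 between CDC42BPA and ACO1, 0.94 between ACO1 and FBXL5, and -0.76 between ACO1 and IREB2. Of 9053 other coding genes at a mean of at least 5 FPKM, TPI1, a glycolytic isomerase, and EI24 were most like ACO1 (r = 0.995 and 0.992). TPX2, a spindle assembly factor, and LRIF1 were most like CDC42BPA (0.993 and 0.992), and CDC42EP1 and SF3A2 most like PCBP2 (0.992 and 0.988). NDUFV2, a complex I subunit, and NID2 were most like FBXL5 (0.984 and 0.981), NCS1 and ILK most like PCBP1 (0.980 and 0.979), and TANK and SDAD1 most like IREB2 (0.939 and 0.932).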

How the data were processed

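RNA from HEK293T cells was sequenced in 12 libraries, 3 per group, with strand-keeping preparation from mRNA (labels' extract protocol). The deposited table holds FPKM computed by the authors with STAR, RSEM and GRCh38, per the submitters' processing notes; tool versions, annotation release and strand setting are not stated there. The first of any entries repeating an ID was kept. On log2(FPKM + 1), the 13682 genes averaging 1 FPKM or more were fitted with limma 3.58.1 (R 4.3.3), with a mean per group over all 12 libraries and an intensity trend. Benjamini-Hochberg adjustment ran over all of them, with calls under 0.05. The code was tested on simulated data. FPKM allow no count model. Depth was estimated from single-transcript genes (700 to 1200 bases, under 0.5 FPKM, fragment length taken as 150), as the value giving most nearly whole fragments. Of these values 71.4% to 75.5% with FAC and 55.2% to 58.9% without fell within 0.2 of a whole number, so no reads were recovered. Replicates are not labelled as separate cultures, so the p-values may reflect technical spread alone. The text names the 6 genes, per list up to 3 genes of smallest adjusted p, TFRC, FTH1, FTL and the 2 coding genes most like each member; CDC14A, CUL1, NUBP2 and other completions of small counts were named with their values known. The genes and lists were chosen with earlier results of these data known. Sequences came from GENCODE release 44 and RefSeq promoter windows, aligned with Biopython 1.88. Of the lists, 1 IRE-bearing gene and 1 blood marker are not reported here.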

Additional observations from a re-analysis of the deposited data

Results flagged for a closer look

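The response to BafA1 differed between cells with and without FAC, by the interaction test of limma, for 5 of the 6 genes. The change with FAC minus the change without was 0.39 log2 units for ACO1 (adjusted p = 0.000159), 0.27 for FBXL5 (adjusted p = 0.00962) and 0.15 for PCBP1 (adjusted p = 0.00401). It was -0.25 for PCBP2 (adjusted p = 0.000244) and -0.55 for CDC42BPA (adjusted p = 1.95e-05). The PCBP1 interaction lost its call under each of the 3 other scalings (0.07 to 0.08, adjusted p = 0.0881 to 0.109). That of IREB2, -0.15 as reported and not called, was called under median-of-ratios scaling and with equal FPKM totals (-0.22 and -0.23). Of all genes tested, 50.1% had a called interaction. With 3 libraries a group, single libraries were not examined as outliers.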

How the results depend on the processing

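PCBP1 with BafA1 against control changed sign under quantile normalization, at 0.0046 log2 units. Calls among the 6 genes for FAC+BafA1 against FAC numbered 0 as reported, 4 with quantile normalization, 2 with the minimum at 5 FPKM, 1 with the groups fitted alone, 1 with equal FPKM totals, and 0 to 1 without single replicates. For FAC+BafA1 against control they numbered 2 as reported, 1 with no intensity trend, and 1 to 3 without single replicates. Over all genes, FAC against control gave 1308 calls as reported, 4486 with no filter and 402 with the minimum at 5 FPKM, and FAC+BafA1 against control gave 4498 and, with no filter, 7643. Equal FPKM totals, an alternative chosen after seeing the data, moved the share of higher calls for FAC+BafA1 against FAC to 61.6%, against 50.7% as reported, and that of the interaction to 48.7%, against 58.9% (49.3% with median-of-ratios scaling). With a replicate block the calls among the 6 genes were 6, 0, 6, 0, 2 and 5 in the order BafA1 against control, FAC against control, FAC+BafA1 against BafA1, FAC+BafA1 against FAC, FAC+BafA1 against control and interaction, as without it; same-numbered libraries shared only a number, with 1 of 18 pairs over 0.1. The causes were not tested. Depth is an estimate, and rounding to 2 decimals does not limit these genes, all above 13 FPKM.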
